A study of Mus musculus with 4 samples.

Results

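Genes of the kidney collecting duct were examined for binding of the CP2-family transcription factor Tfcp2l1 in mouse embryonic stem cells. The 10 genes were Atp6v1b1, Atp6v0a4, Atp6v1c2, Foxi1, Oxgr1, Kit, Aqp2, Aqp3, Scnn1a and Avpr2, of 21883 protein-coding genes in all. Their members were the peaks of either repeat whose summit lay inside one of these genes or within 50 kb of an end (RefSeq genes, GRCm38). That gave 94 of 57614 peaks in repeat 1 and 77 of 51610 in repeat 2. Joining overlapping peaks of both repeats left 71 of 43045 shared sites.

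The cells were wild type and untreated, and all 4 libraries shared the growth condition, so no other condition was compared. The culture was 2i with LIF: LIF, a cytokine that activates Stat3, at 1000 units/mL, the GSK3 inhibitor CHIR99021 at 3 µM and the MEK inhibitor PD0325901 at 1 µM. Each of 2 repeats had 1 ChIP library, made with 10 µg of an antibody raised for the study against mouse Tfcp2l1, and 1 input library without antibody. The filtered ChIP libraries held 19353473 tags in repeat 1 and 22555373 in repeat 2. No label says that the repeats were separate cultures, so their spread may be technical. No kidney cell was sampled and no RNA was measured, so the name of the gene group describes where these genes are known to work and was not checked by expression here.

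The collecting duct is the last segment of the kidney tubule, where the final volume, salt content and acidity of urine are set. Principal cells take up water and sodium, and intercalated cells move acid and base, using a proton pump of many subunits, the V-ATPase. Tfcp2l1 is expressed in the developing and adult collecting duct and is known for its part in the patterning of these cell types. In embryonic stem cells the same factor is known as a member of the naive pluripotency network downstream of LIF. CP2 factors bind paired half-sites with a fixed spacing. A pair of CCAG half-sites with 6 bases between them is called strict here, and a pair of CCNG half-sites with the same spacing loose.

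Promoter sequences are shown because peaks lay over the start of most of these genes. RefSeq promoter windows (GRCm38.p6), 250 bases before to 50 after the start, were found for 9 of the 10 genes, and Scnn1a had none in the table. A shared site overlapped the window in 6 of these 9 genes, against 22.9% of the 17491 protein-coding genes with a window. The 6 were Atp6v1b1, Atp6v1c2, Foxi1, Oxgr1, Kit and Aqp3. Both summits of a shared site fell inside the window in 2 genes, Atp6v1b1 and Foxi1, against 8.07% of genes with a window. The stretches printed here are the 250 bases before the start, read 5′ to 3′ on the strand of the gene. In Atp6v1b1 (chr6:83742767-83743016, plus strand) capitals mark the 28 bases from the summit of one repeat to that of the other.
Atp6v1b1: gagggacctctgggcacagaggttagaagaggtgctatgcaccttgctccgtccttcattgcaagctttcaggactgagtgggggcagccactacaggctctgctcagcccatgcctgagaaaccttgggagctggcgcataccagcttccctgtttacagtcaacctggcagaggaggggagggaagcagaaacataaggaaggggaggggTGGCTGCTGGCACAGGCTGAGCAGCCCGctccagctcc
In Foxi1 (chr11:34208090-34208339, minus strand) capitals mark the single match to the loose CCNG pair.
Foxi1: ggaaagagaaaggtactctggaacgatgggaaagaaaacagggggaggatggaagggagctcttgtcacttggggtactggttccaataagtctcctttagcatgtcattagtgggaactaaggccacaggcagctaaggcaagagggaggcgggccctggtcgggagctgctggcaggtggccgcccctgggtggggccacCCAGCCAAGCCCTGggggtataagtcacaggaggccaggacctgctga

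The Foxi1 match, CCAGCCAAGCCCTG, lay 48 to 35 bases before the start (chr11:34208124-34208137). The summit of repeat 1, 47 bases before the start, was inside the match, and the summit of repeat 2, 32 bases before it, was 3 bp away. A search of both strands found the loose CCNG pair in 4 of the 9 windows (Foxi1, Kit, Atp6v0a4 and Avpr2), against 37.7% of genes with a window. The strict CCAG pair, every match of which is also a match of the loose pair, stood in 2 of 9, against 4.01%. Over all genes, 55.5% of the 3998 genes with a promoter window under a shared site held the loose pair, and 32.4% of the 13493 others did. Where a gene had more than 1 window, the shared site and the pair could be in different windows. A match here is a run of letters and not a measured site, and letters missing from a window say nothing of binding.

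The remaining windows with a match are printed to set a gene with a peak over its start beside a pair without one. The Kit window (chr5:75574737-75574986, plus strand) lay under a shared site, but its match was 447 bp from the summit of repeat 1 and 441 bp from that of repeat 2. The windows of Atp6v0a4 (chr6:38124587-38124836, minus strand) and Avpr2 (chrX:73891852-73892101, plus strand) held the strict pair and had no peak of either repeat over them. Capitals mark matches to the loose pair or to its reverse complement, and in Atp6v0a4 they join 2 overlapping matches.
Kit: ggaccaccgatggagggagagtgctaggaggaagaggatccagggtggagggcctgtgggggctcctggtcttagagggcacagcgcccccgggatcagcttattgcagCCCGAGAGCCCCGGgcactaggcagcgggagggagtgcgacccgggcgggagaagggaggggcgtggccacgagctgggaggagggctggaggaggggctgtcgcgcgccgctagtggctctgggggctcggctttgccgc
Atp6v0a4: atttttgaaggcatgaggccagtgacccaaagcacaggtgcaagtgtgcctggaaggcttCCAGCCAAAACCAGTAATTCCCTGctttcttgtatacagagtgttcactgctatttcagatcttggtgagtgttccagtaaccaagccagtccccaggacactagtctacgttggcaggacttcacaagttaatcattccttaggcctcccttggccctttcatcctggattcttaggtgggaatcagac
Avpr2: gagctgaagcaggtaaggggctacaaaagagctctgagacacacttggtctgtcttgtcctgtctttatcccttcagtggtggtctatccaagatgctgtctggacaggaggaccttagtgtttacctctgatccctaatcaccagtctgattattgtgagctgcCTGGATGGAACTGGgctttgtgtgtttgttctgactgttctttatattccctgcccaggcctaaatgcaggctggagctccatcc
Atp6v0a4 and Avpr2 thus carried the letters CCAGCCAAAACCAG and, on the other strand, CCAGTTCCATCCAG without a called peak over the window, while the weak Foxi1 peak was centred on a match to the loose pair only. Past the Avpr2 window, repeat 1 alone had a peak inside that gene (73892401 to 73893442), with 6.5-fold enrichment and 38 tags.

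All 10 genes had at least 1 shared site in the gene or within 50 kb, but so had 80.6% of protein-coding genes, so this count is close to the background. Numbers of sites were uneven. Kit had 14 sites, Atp6v1b1 and Aqp3 had 13 each, and Aqp2 and Scnn1a had 8 each, while Atp6v1c2 had 4, Atp6v0a4, Foxi1 and Avpr2 had 3 each and Oxgr1 had 2. These 5 genes with 8 or more sites held 56 of the 71 sites (78.9%), and 21.0% of protein-coding genes had as many. Per 100 kb of gene and flanks, the 10 genes had a median of 4.52 sites, against 2.56 over all protein-coding genes, and 8 of 10 lay above that median. No test was run on these counts, because the genes were listed with earlier results of the data known.

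**Figure D1:**
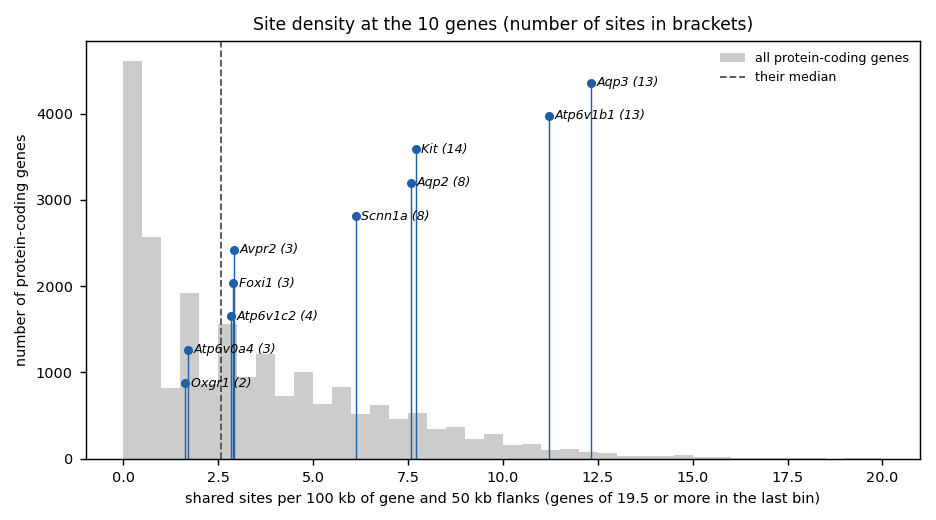
Grey bars count protein-coding genes by the number of shared sites per 100 kb of gene and 50 kb flanks, and the dashed line is their median, 2.56. Blue pins mark the 10 genes at their density, with their number of sites in brackets (pin height has no meaning); Aqp3 and Atp6v1b1 stand farthest right and Oxgr1 and Atp6v0a4 lie below the median.

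Enrichment of the 71 sites was near that of shared sites at large. The authors' fold enrichment over input had a median of 17.0 in repeat 1 and 11.8 in repeat 2, against 15.5 and 11.8 over all shared sites. It ran from 5.16 to 123 in repeat 1 and from 5.0 to 109 in repeat 2. Sites in the strongest 10% of both lists (at least 43.4-fold in repeat 1 and 32.2-fold in repeat 2) numbered 10 of 71 (14.1%), against 9.87% of all shared sites. They stood at Atp6v1b1 (4), Aqp3 (3), Aqp2, Scnn1a and Kit (1 each), so 5 of 10 genes had one, against 31.8% of protein-coding genes. The values are those of single peaks as the authors' caller gave them, and each repeat was set against its own input.

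**Figure D2:**
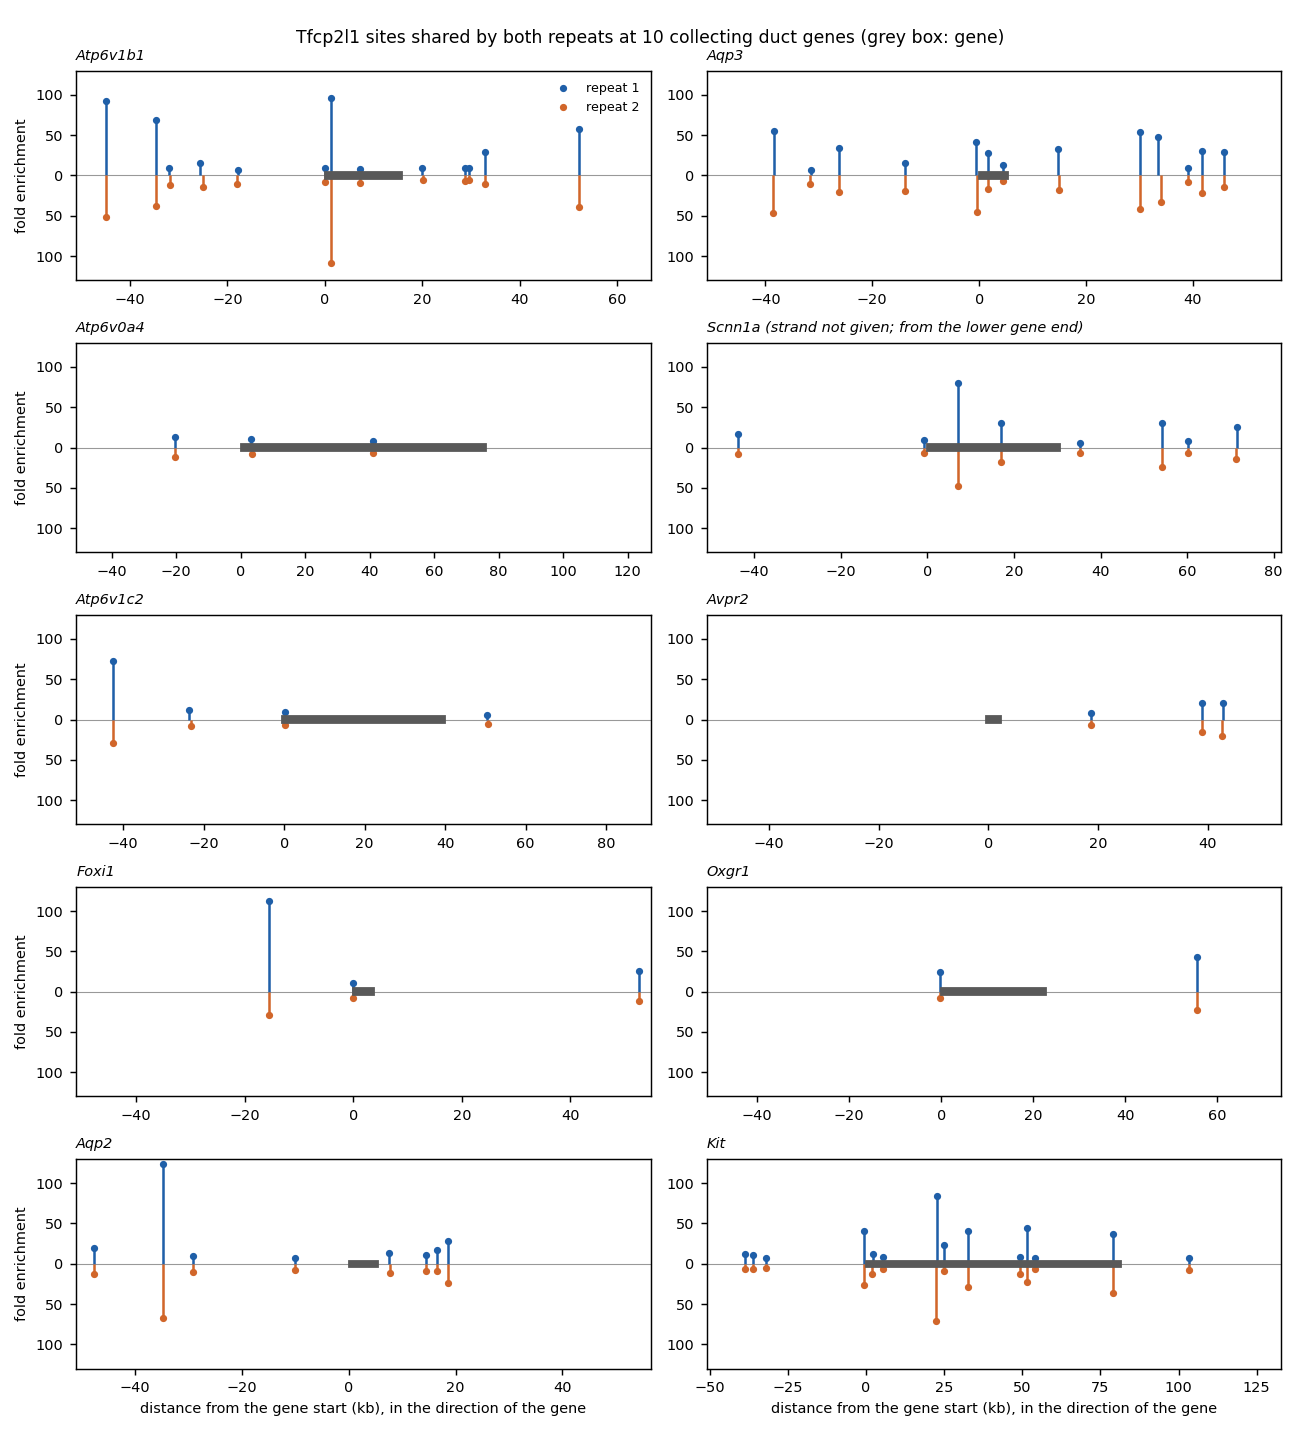
Each panel is 1 gene (grey box) with its flanks, drawn in the direction of the gene, in kb from its RefSeq start (Scnn1a from its lower end). Blue stems above the line are the fold enrichment of shared sites in repeat 1 and orange stems below it those in repeat 2; the tall stems at Foxi1, Atp6v1c2 and Aqp2 stand well away from the gene, while those at Kit and Scnn1a stand inside it.

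The proton pump genes differed widely. Atp6v1b1 encodes the B1 subunit of the catalytic V1 sector, the form found in intercalated cells, and is mutated in a renal tubular acidosis with deafness. It lies on chromosome 6 at 83743017 to 83758855. Its strongest site was inside the gene, 1315 bp after the start (83743686 to 83745385), with 96.3-fold enrichment and 618 tags in repeat 1 and 109-fold and 551 tags in repeat 2. In repeat 2 only 0.12% of all peaks ranked as high. The peak over the start itself was weak, at 9.71-fold (35 tags) and 8.63-fold (34 tags), with summits 11 bp and 38 bp before the start.

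Other strong sites in the Atp6v1b1 window lay nearer to other genes. A gene that held a site counted as the nearest to it throughout. Those 44.9 kb and 34.6 kb upstream had Vax2, a homeobox gene, as the nearest gene. They reached 92.8-fold and 68.5-fold in repeat 1 and 51.8-fold and 37.5-fold in repeat 2. A site 36.3 kb beyond the far end, nearest to Nagk, had 57.5-fold and 38.9-fold. Of the 13 sites, 3 had Atp6v1b1 as their nearest gene, the 1315 bp site among them.

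Atp6v0a4, for the a4 subunit of the membrane V0 sector, which is also mutated in renal tubular acidosis, had low enrichment throughout. It spans 76.1 kb of chromosome 6 (38048483 to 38124586). Its 3 sites had 13.04-fold, 10.6-fold and 7.73-fold in repeat 1 and 11.8-fold, 8.24-fold and 6.67-fold in repeat 2. The strongest was 20.4 kb upstream, and the others lay inside the gene, 3.21 kb and 41.0 kb after the start. Its density, 1.70 sites per 100 kb, was below the median of all genes.

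Atp6v1c2, for the C2 subunit of the V1 sector, lies on chromosome 12 (17284721 to 17325386) and had 4 sites. The strongest, 42.6 kb upstream and nearest to Nol10, had 72.4-fold (182 tags) in repeat 1 and 29.0-fold (111 tags) in repeat 2. The others were weak in both repeats. A site 23.8 kb upstream had 11.7-fold and 7.46-fold, the site at the start, with its summit 274 bp after the RefSeq start, had 8.80-fold and 6.92-fold, and a site downstream had 5.16-fold and 5.0-fold.

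Foxi1, the forkhead factor on which intercalated cells depend, had the site of the 71 with the lowest ratio of repeat 2 to repeat 1. The gene is short and lies on chromosome 11 (34204341 to 34208089). The site 15.4 kb upstream of the start (34222736 to 34224121), with Dock2 as the nearest gene, had 113-fold enrichment and 584 tags in repeat 1 but 28.7-fold and 208 tags in repeat 2. It was among the top 0.85% of peaks in repeat 1 and the top 12.2% in repeat 2. Per 1000000 filtered ChIP tags these counts are 30.2 and 9.22. The ratio of repeat 2 to repeat 1 was 0.306 (95% interval 0.260 to 0.359, counting error only), against a median of 0.832 over all shared sites, and 0.559% of all shared sites had a ratio as low. Other Foxi1 sites lay over the start (11.1-fold with 44 tags, then 7.46-fold with 32 tags) and 48.8 kb beyond the far end (25.1-fold and 11.4-fold).

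Oxgr1 and Kit are receptors found on intercalated cells. Oxgr1, the G protein-coupled receptor for 2-oxoglutarate, lies on chromosome 14 (120019585 to 120042435) and had 2 sites, the fewest of the 10 genes. The site 32.9 kb beyond its far end had 43.5-fold (137 tags) and 22.8-fold (99 tags). That over the start had summits 256 bp and 228 bp upstream, with 24.3-fold (78 tags) in repeat 1 and 7.46-fold (28 tags) in repeat 2. Here too the tags per 1000000 fell short in repeat 2, 4.03 against 1.24, a ratio of 0.308 (0.193 to 0.480, counting error only) that 0.583% of all shared sites had or fell below. For both Oxgr1 sites the gene itself was the nearest.

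Kit, the receptor tyrosine kinase for stem cell factor, is known from germ cells, melanocytes and blood progenitors as well as the collecting duct. It spans 81.7 kb of chromosome 5 (75574987 to 75656722) and held 14 sites, 9 of them inside the gene, and each of the 14 had Kit as the nearest gene. The strongest was 22.6 kb after the start (75596889 to 75598796), with 83.6-fold and 71.0-fold. Further sites inside the gene, 78.9 kb and 32.5 kb after the start, had 37.0-fold and 40.1-fold in repeat 1 and 35.7-fold and 29.4-fold in repeat 2. A site with summits 588 bp and 582 bp before the start had 41.1-fold (134 tags) and 26.5-fold (99 tags).

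One Kit site ran the other way from those at Foxi1 and Oxgr1. It lay 49.4 kb after the start and had 8.17-fold (35 tags) in repeat 1 and 12.95-fold (100 tags) in repeat 2. The ratio of tags per 1000000 was 2.45 (1.65 to 3.71), and 99.8% of all shared sites had this ratio or a lower one. But the called peak was 598 bp long in repeat 1 and 1699 bp in repeat 2, so the counts cover different spans.

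**Figure D3:**
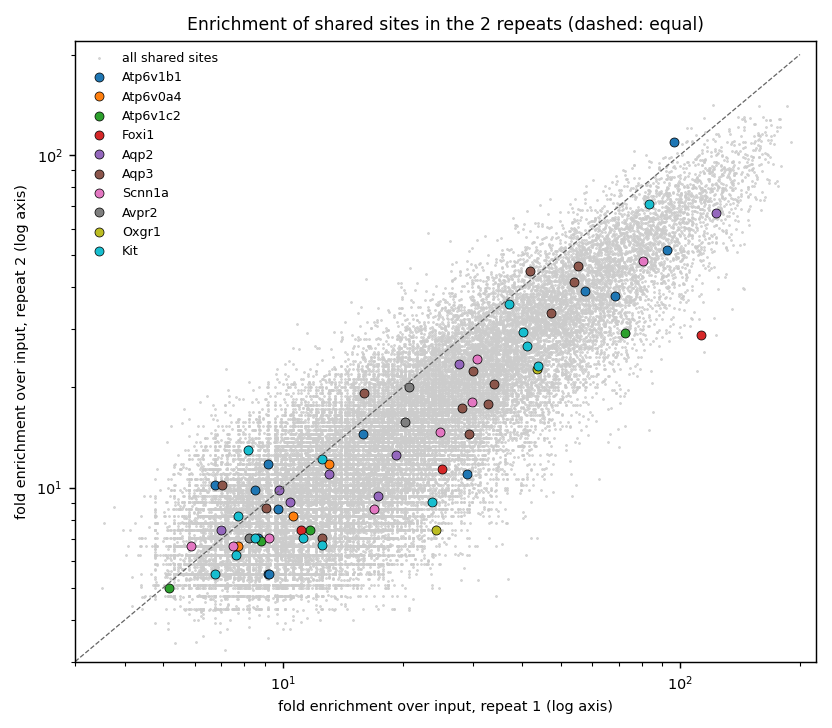
Each point is a shared site, with the authors' fold enrichment in repeat 1 (horizontal) and repeat 2 (vertical) on log axes; grey points are all 43045 shared sites and coloured points the 71 at the 10 genes. The red point far below the dashed line of equal values is the upstream Foxi1 site (113-fold and 28.7-fold), and the blue point above it at upper right is the Atp6v1b1 site (96.3-fold and 109-fold).

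Water channel genes of principal cells had many sites. Aqp2, the channel that vasopressin moves to the apical membrane, lies on chromosome 15 (99579056 to 99584545). Its window held the most enriched site of all 71 in repeat 1, 34.7 kb upstream (99543555 to 99545016), with 123-fold (382 tags) and 67.0-fold (373 tags). Faim2 was the gene nearest to it. Downstream of Aqp2 lie its paralogs Aqp5 and Aqp6, and the next site in order, 13.01 kb beyond Aqp2, was nearest to Aqp6 (27.8-fold and 23.6-fold). Further sites were nearest to Faim2 (19.3-fold and 12.5-fold) and to Aqp5 (17.3-fold and 9.41-fold). Only 2 of the 8 sites were nearest to Aqp2, one 2.12 kb beyond its far end (13.04-fold and 10.99-fold) and one 10.1 kb upstream (6.97-fold and 7.46-fold). No shared site lay inside the gene or over its start.

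Aqp3, a water and glycerol channel of the basolateral membrane, had the densest window, with 12.3 sites per 100 kb, more than 98.7% of protein-coding genes. It lies on chromosome 4 (41092724 to 41098183). A site overlapping its promoter window, with summits 553 bp and 466 bp before the start, had 41.8-fold (244 tags) and 44.7-fold (219 tags). That was the highest among the 6 genes with a site over the promoter window, though the Kit site had 41.1-fold in repeat 1. The site 38.5 kb upstream, nearest to Ube2r2, had 55.2-fold and 46.3-fold. Sites 24.6 kb and 28.0 kb beyond the far end, nearest to the paralog Aqp7, had 54.1-fold and 47.2-fold in repeat 1 and 41.4-fold and 33.4-fold in repeat 2. Inside the gene were sites of 28.2-fold and 12.5-fold in repeat 1 and 17.3-fold and 7.06-fold in repeat 2. Of the 13 sites, 4 were nearest to Aqp3.

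Scnn1a, the alpha subunit of the epithelial sodium channel, lies on chromosome 6 (125314271 to 125344943) and had 8 sites. The strongest was inside the gene, 7.14 kb from the nearer end (125320752 to 125322105), with 80.3-fold (267 tags) and 47.9-fold (216 tags). A further one inside had 29.9-fold and 18.1-fold. Sites nearest to Plekhg6, 23.5 kb and 40.8 kb outside the gene, had 30.8-fold and 24.9-fold in repeat 1 and 24.3-fold and 14.7-fold in repeat 2. The shared site nearest to an end, 0.860 kb outside the gene, was nearer to Ltbr and weak, at 9.21-fold and 7.06-fold.

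Avpr2, the vasopressin receptor that acts upstream of Aqp2, had no shared site within 10 kb. It lies on chromosome X (73891765 to 73894428), and its 3 sites stood 16.5 kb, 36.6 kb and 40.4 kb beyond its far end, nearest to Arhgap4 or Renbp. They had 8.21-fold, 20.3-fold and 20.8-fold in repeat 1 and 7.06-fold, 15.7-fold and 20.01-fold in repeat 2. On X, 44.1% of the 966 protein-coding genes had a shared site within 50 kb, and their median density was 0. The density at Avpr2, 2.92 per 100 kb, was above that of 92.5% of genes on X and 55.3% of all protein-coding genes.

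Across the genes, the strongest sites were not those at the starts. In none of the 6 genes with a shared site over the promoter window was that site the strongest in its window, while it was in 28.8% of the 3998 genes with such a site. The sites at the starts of Atp6v1b1, Atp6v1c2 and Foxi1 had at most 11.1-fold in repeat 1, and those of Aqp3 and Kit had over 40-fold. The strongest site lay inside the gene in 3 of 10 genes (Atp6v1b1, Scnn1a and Kit) and more than 10 kb outside it in the other 7. This split was not computed over all protein-coding genes, so it cannot be called particular to these genes. Outside a member gene does not mean between genes. The strongest sites of Atp6v0a4, Atp6v1c2 and Aqp3 lay inside D630045J12Rik, Nol10 and Ube2r2, and those of Foxi1, Oxgr1, Aqp2 and Avpr2 inside no protein-coding gene. Of the 71 sites, 36 (50.7%) lay inside some protein-coding gene, against 55.7% of all shared sites. A shared summit lay within 1 kb of an end in 7 of 10 genes, against 28.5% of protein-coding genes, and inside the gene in 6 of 10, against 44.1%. Except at Scnn1a, the sites within 1 kb of an end are those over the promoter windows, so this count is not separate from the promoter count.

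**Figure D4:**
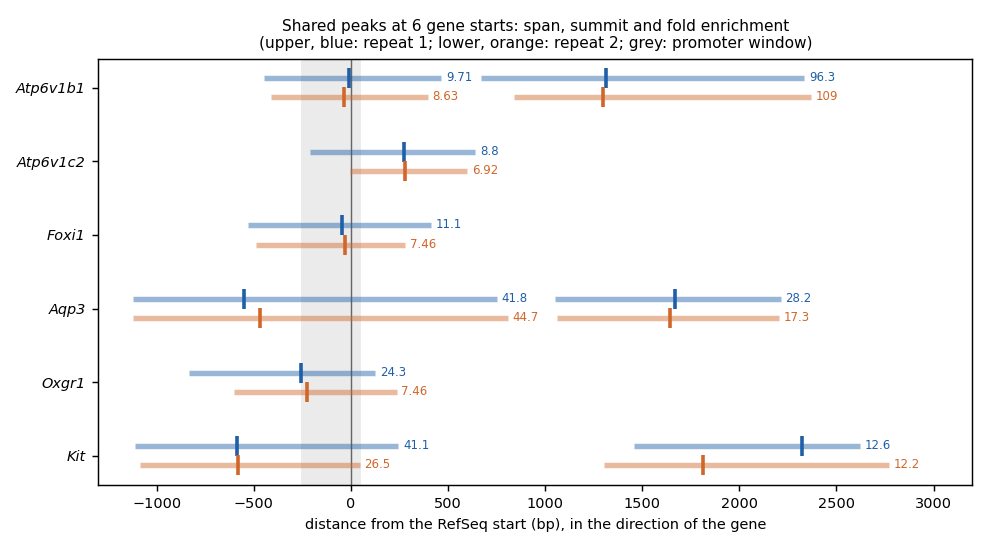
Bars show the span, and ticks the summit, of shared peaks around 6 gene starts, in bp from the start and in the direction of the gene; blue is repeat 1, orange repeat 2, with fold enrichment printed beside each bar and the promoter window in grey. Only the Atp6v1b1 and Foxi1 ticks of both repeats fall in the grey band, and the stronger Atp6v1b1 peak stands 1315 bp and 1300 bp after the start.

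Summits lay close together in the 2 repeats, and fold enrichment was mostly higher in repeat 1. Shared sites are built from overlapping peaks, which in part sets how close their summits lie. Summits of the 71 sites lay a median of 29 bp apart, against 28 bp over all shared sites. They were within 100 bp at 60 of 71 sites, a share that was not computed over all shared sites. Fold enrichment was higher in repeat 1 at 59 of 71 sites (83.1%), against 78.3% of all shared sites. The median ratio of repeat 2 to repeat 1 was 0.774 for fold enrichment (0.760 over all sites) and 0.772 for tags per 1000000 (0.832 over all sites). Member genes were the nearest protein-coding gene for 32 of the 71 sites (45.1%), spread over 9 genes, and for 3 of the 10 sites in the strongest 10%, at Atp6v1b1, Scnn1a and Kit. Neither share was computed for the windows of other genes, so whether they are low or high is not known. Which gene a distant site acts on was not measured.

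Wider lists of collecting duct and related genes had shared sites within 50 kb in 80.0% to 100% of their genes, beside 80.6% of all protein-coding genes. All 22 other V-ATPase subunit and accessory genes had one within 50 kb, with a median of 4 sites. Atp6v1a, the catalytic A subunit, had a site of 125-fold and 94.2-fold 0.025 kb outside the gene, and Atp6v0d1 one of 93.6-fold and 82.4-fold 0.184 kb outside it. The strongest site in the Atp6ap1 window (153-fold and 80.5-fold) was 42.2 kb away and nearest to Emd. A shared site overlapped the promoter window of 7 of the 16 V-ATPase genes with one, beside 22.9% of all genes with a window.

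All 17 intercalated cell transport genes had a shared site as well, again with a median of 4. The carbonic anhydrase gene Car15 led them, with 190-fold and 109-fold 6.15 kb from the gene, the highest fold enrichment of these lists in repeat 1. Car12, another carbonic anhydrase gene, had 117-fold and 111-fold 29.2 kb away, nearest to Aph1b. A promoter window was overlapped in 2 of 8, which is near the share over all genes.

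Of 18 principal cell genes, 16 had a shared site. Kcnj10, a potassium channel gene, had one of 105-fold and 66.3-fold inside the gene, and Fxyd2, a regulator of the sodium pump, one of 85.4-fold and 59.2-fold 1.07 kb away. The strongest in the window of Hsd11b2, which inactivates glucocorticoids, was the Atp6v0d1 site, 42.3 kb away. Aqp4 and Avpr1a had none. A promoter window was overlapped in 2 of 11 principal cell genes, beside 22.9% of all genes with a window.

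Among 22 transcription factor and Notch genes, 20 had a shared site. Rbpj, the nuclear effector of Notch signalling, had one inside the gene with 177-fold and 128-fold, Elf3, an epithelial ETS factor, had 13 sites, the strongest at 109-fold and 69.8-fold, and Foxp1 had one inside the gene at 111-fold and 55.3-fold. Emx2 and Foxi2, a forkhead paralog of Foxi1, had none. Of 15 paralogs of the members in the gene table, 12 had a shared site, with Aqp5, Pdgfrb and Aqp9 in the lead. The Aqp5 value was that of the site upstream of Aqp2, 46.7 kb from Aqp5. Aqp8 and Oxtr, the oxytocin receptor gene, had none. Promoter windows were overlapped in 7 of 19 transcription factor and Notch genes and in 1 of 12 paralogs, beside 22.9% of all genes. The median of sites was 4.5 for the transcription factor list and 3 for the paralogs, against 3 over all protein-coding genes and 6 for the 10 genes.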

How the data were processed

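Data were 2 peak lists from ChIP-seq, 1 per repeat, called separately. Per the file headers, the authors used MACS 1.4.1 on each ChIP library against its own input, with a p-value threshold of 1e-05, tags of 35 bp, a fragment length of 200 bp and at most 2 duplicate tags per position. CASAVA 1.8.2 is named in the submitters' processing notes, and no aligner is given in the sources used here. Deposited tag counts are whole ChIP tags per peak. The deposited fold enrichment is a ratio of ChIP tags to the local background. The deposited score is 10 times -log10 of p, and the deposited FDR is in percent.

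The notes name mm9, but summits on chromosome Y reach 90.8 Mb, beyond its end in mm9, so RefSeq genes of GRCm38.p6 were used. On each autosome 10.8% to 19.0% of shared summits lie within 1 kb of an end of a GRCm38 gene. That share was not computed with mm9 genes, so it cannot tell the builds apart. Exons and introns were not told apart. Peaks overlapping by at least 1 bp were joined into shared sites, each repeat's highest fold enrichment was used, and both summits had to lie in the window. Tag counts were scaled to 1000000 filtered ChIP tags, with exact 95% intervals of ratios. Python 3.11.15 with pandas 2.3.3 and scipy 1.17.1 was used, and the overlap code was tested on simulated data. The genes, the wider lists and the rule for named sites (up to 4 per gene by mean rank, plus the nearest to an end; 3 leading genes and up to 2 without a site per list) were chosen with earlier results of these data known, so no test was run. Scnn1d of the paralog list had no match, and 1 gene that the rule names is not reported here.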

Additional observations from a re-analysis of the deposited data

How the results depend on the processing

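All 10 genes kept a shared site with a window of 100 kb, with each other definition of a shared site, with at least 10-fold enrichment in both repeats and with scores of at least 100. The share of all protein-coding genes with one was 87.0% within 100 kb, 71.6% with 10-fold enrichment and 74.8% with these scores. It was 79.3% with summits within 100 bp and 80.3% with a reciprocal overlap of 50%. The gene count was 9 within 10 kb and by nearest gene (Avpr2 dropped out of both), 6 inside the gene alone and 7 with an FDR of 0% in both repeats. Over all protein-coding genes the share was 64.5% within 10 kb, 44.1% inside the gene and 45.1% with an FDR of 0%. No such share was computed by nearest gene. The number of sites, 71 in the report, was 29 within 10 kb, 111 within 100 kb, 18 inside genes and 32 by nearest gene. It was 37 with at least 10-fold enrichment, 12 with an FDR of 0%, where 4 of the 10 sites in the strongest 10% were kept, and 46 with scores of at least 100. Those fold and score limits raised the median fold enrichment to 34.0 and 29.7 in repeat 1 and to 23.2 and 19.6 in repeat 2, which follows from leaving out weak peaks. The highest FDR of any peak was 0.11% in repeat 1 and 0.12% in repeat 2. In repeat 2 an FDR of 0% did not always go with high fold enrichment. There an Atp6v1b1 site of 51.8-fold had 0.04% and an Atp6v0a4 site of 8.24-fold had 0%. With a single repeat the gene count was 10 and 10, the peaks numbered 77 in repeat 2 and 94 in repeat 1, and the median fold enrichment was 10.99 in repeat 2 and 11.2 in repeat 1. The share of all protein-coding genes with a peak was then 82.9% in repeat 2 and 85.5% in repeat 1. Of the other values recomputed (sites per gene, shares over all genes, the strongest site of each gene and motif counts), 67 stayed within 1.5 times the reported value and 58 did not. Ranking by tags or by score kept the strongest site of 8 genes, and moved it in Aqp3 (to 28.0 kb beyond the far end) and in Atp6v0a4 (to 3.21 kb inside the gene), neither over a start. With CNNG half-sites at the same spacing, 8 of 9 promoter windows held a match, against 76.8% of genes with a window. No paired analysis was possible because the inputs enter only through the authors' peak calls and no groups were compared.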

Other observations

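Peaks at the 10 genes called in 1 repeat alone had a median fold enrichment of 7.73 in repeat 1 and 6.28 in repeat 2. All peaks at these genes, shared ones included, had 11.2 and 10.99, and all peaks of the whole lists had 12.1 and 10.2. Those called in 1 repeat alone numbered 22 of 94 in repeat 1, with fold enrichment from 5.24 to 13.5 and from 17 to 62 tags. In repeat 2 they were 6 of 77, with 5.0 to 9.42 and from 23 to 39 tags. Overlap with the other repeat was 76.6% in repeat 1 and 92.2% in repeat 2, against 76.1% and 84.8% over all peaks. Aqp3 had 5 of those in repeat 1 and Aqp2 had 4. At Avpr2, 3 of the 6 peaks of repeat 1 had no partner in repeat 2.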
